A study of Rattus norvegicus with 93 samples.

Results

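Elastic fibre and microfibril genes were followed through the first 3 weeks of healing of holes cut in the rat skull roof. The set is a list of 10 genes matched by symbol to the array annotation: Mfap2, Mfap5, Fbn1, Mfap4, Fbln1, Fbln2, Fbln5, Eln, Lox and Loxl1. All 10 were measured, out of 15974 genes in all, on 15 probes. Fbn1, Fbln1, Fbln2, Lox and Loxl1 had 2 probes each, and the more variable probe of a gene was used.

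The tissue was calvarial bone with the plug of healing tissue, taken from male rats labelled 12 weeks old, with no treatment beyond surgery. Circular defects were made with a trephine under saline, the bone disc was lifted out, and the dura mater under it was left intact. RNA of each defect went to its own 1-colour Cy3 array, 93 in all. The 8 mm defects, called critical-size in the series, had 5, 11, 12, 5, 6, 6 and 6 arrays at days 1, 3, 5, 7, 10, 14 and 21, and the 4 mm defects, called non-critical, had 3, 8, 11, 5, 4, 5 and 6. No unoperated bone was analysed here, so later days were set against day 1, whose 8 arrays all of these comparisons share. The titles carry 14 rat numbers that recur across days and sizes, and the labels do not say whether a number stands for 1 animal, so p-values measure the spread between these arrays. The RNA is that of a bulk tissue, in which fewer cells of a type and less RNA per cell cannot be told apart.

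Elastic fibres have a core of cross-linked elastin laid down on a scaffold of microfibrils, whose main building block is fibrillin. Microfibril-associated glycoproteins decorate the fibrillin beads, fibulins and Mfap4 bring elastin to the scaffold, and lysyl oxidases join elastin and collagen chains through oxidised lysines. In bone, fibrillin microfibrils occur without much elastin and are known for holding TGF-beta and BMP complexes in the matrix, and loss of fibrillin or of lysyl oxidase weakens the skeleton in mice. Elastin itself is best known from arteries, skin and lung.

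The promoters of Mfap2 and Loxl1, the pair of genes in the list whose group means were most alike over time, are shown for orientation. Each window runs from 250 bases before to 50 after the start that the RefSeq table uses on the GRCr8 assembly, 300 bases in all, written 5′ to 3′ on the gene's own strand. Capitals mark matches to the motifs searched. The Mfap2 window lies at chr5:158597478-158597777 on the plus strand and has a GC content of 67%. The start used for Mfap2 is 2607 bases inside the annotated gene, so it is not the gene's outermost start. The Loxl1 window lies at chr8:67612175-67612474 on the minus strand and has a GC content of 61%, and its start is the outer end of the annotated gene.
Mfap2: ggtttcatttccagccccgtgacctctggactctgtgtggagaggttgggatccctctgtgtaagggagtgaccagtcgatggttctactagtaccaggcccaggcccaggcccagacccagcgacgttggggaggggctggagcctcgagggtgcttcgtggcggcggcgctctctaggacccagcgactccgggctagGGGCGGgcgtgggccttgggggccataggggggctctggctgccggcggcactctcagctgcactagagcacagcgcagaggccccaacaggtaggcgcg
Loxl1: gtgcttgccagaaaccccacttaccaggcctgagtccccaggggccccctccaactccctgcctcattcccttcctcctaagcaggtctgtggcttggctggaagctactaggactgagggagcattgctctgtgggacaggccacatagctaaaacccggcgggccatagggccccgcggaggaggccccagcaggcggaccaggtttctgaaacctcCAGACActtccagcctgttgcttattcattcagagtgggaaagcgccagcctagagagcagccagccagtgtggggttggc
The motifs, each sought on both strands, were the TATA box TATAAA, the GC box GGGCGG, the Smad element CAGACA and the AP-1 element TGACTCA. The Mfap2 window held a GC box starting 50 bases before the start site, and the Loxl1 window a Smad element starting 31 bases before it, with no other match in either. Promoter windows were at hand for 6 of the 10 genes (Fbln2, Fbln5, Fbn1, Loxl1, Mfap2 and Mfap5). A GC box was found in 3 of them, Fbln2, Fbln5 and Mfap2, beside 33.06% of 33469 rat promoter windows. A Smad element was found in 2, Fbn1 and Loxl1, beside 21.08% of all windows. The TATA box, in 14.22% of all windows, and the AP-1 element, in 4.63%, were in 0 of the 6. These matches describe the letters only.

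Most of the list was higher at each later day than at day 1. Of the 10 genes, 7, 8, 8, 8, 7 and 8 were called higher than at day 1 on days 3, 5, 7, 10, 14 and 21, and 0 were called lower. A gene was called where limma's moderated test on log2 values gave a Benjamini-Hochberg adjusted p under 0.05 over all genes, with both defect sizes weighted equally. Among all 15974 genes the share called higher was 5.97%, 17.3%, 16.6%, 10.4%, 12.6% and 13.4% on these days. The median log2 difference of the 10 genes was 1.46, 1.92, 2.79, 1.99, 2.16 and 2.59 at these days, beside 0.20, 0.34, 0.25, -0.06, -0.06 and -0.18 over all genes. Mfap2, Loxl1, Mfap4, Fbn1, Fbln5 and Mfap5 were called at all 6 days. Fbln2 was called at days 3 to 10, Fbln1 from day 7 on, Lox at day 5 and Eln at day 21. The genes Mfap2, Fbn1, Mfap4, Fbln1, Fbln5 and Loxl1 stood higher on every day 7 array than on any day 1 array, that is 6 of 10 beside 3.62% of all genes. On days 3, 5, 10, 14 and 21 this held for 1, 3, 4, 1 and 4 of the 10, beside 0.0814%, 2.18%, 1.68%, 1.92% and 2.08% of all genes, and Mfap2 was among them each time.

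**Figure D1:**
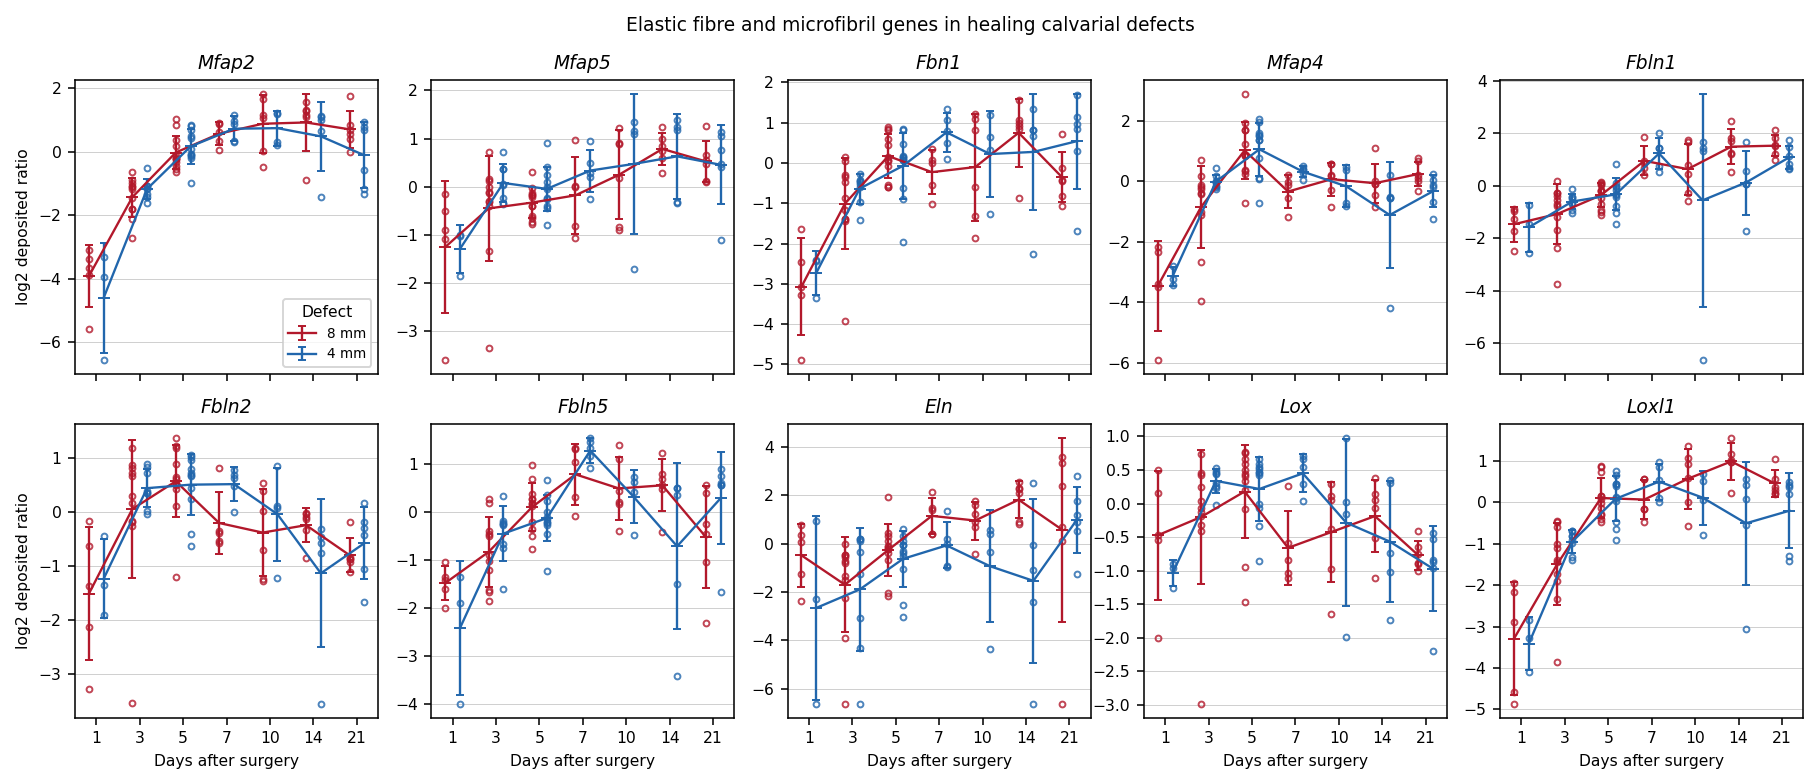
Log2 of the deposited ratio (vertical axes, own range for each gene) of the 10 genes by days after surgery (horizontal axes), with 1 open circle per array and bars giving mean ± SD, 8 mm in red left of 4 mm in blue. Each of the 10 genes has its lowest group mean at day 1, and Eln has 5 arrays at the floor of the file.

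The values are ratios to a probe's typical level, with a median of 1 (log2 of 0) for most probes, so that they are compared within a gene and never between genes. On this scale a difference between days is a log2 fold, and 0.01 (log2 of -6.64) is the lowest value in the file. Only Eln, on 5 arrays, and Fbln1, on 1 array, reached that floor. Over all probes, the share at the floor was 10.04% to 10.91% on arrays of days 1, 3 and 5. On arrays of days 7 to 21 it was 10.06% to 23.78%. At day 7 it was 10.06% to 17.15% in 8 mm and 11.93% to 16.73% in 4 mm defects. The part of this in the differences between days was not tested. The median level of an array over probes never at the floor was below -0.7 on 7 arrays, among them rat 13 of 4 mm and rat 11 of 8 mm at day 1 and rat 18 of 8 mm at day 3. All 7 are of days 1, 3 and 10. For comparisons within other days, leaving them out changes the spread shared by all groups and not the difference. Without these 7 arrays the counts of genes called higher than at day 1 were 6, 7, 8, 8, 7 and 7. Centring each array on that level put the median of all genes at day 7 at -0.39 and that of the 10 genes at 2.16, with 8 called. The share of higher genes among all called at day 7 was 77.41%, against 66.57% after quantile normalization and 38.04% after centring. It was 92.71%, 91.1%, 62.92%, 59.87% and 51.15% at days 3, 5, 10, 14 and 21, against 69.28%, 51.61%, 34.62%, 31.09% and 35.33% after centring.

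Of the microfibril genes, Mfap2 encodes a small glycoprotein on the fibrillin beads. At day 7 its log2 ratio was 0.07, 0.36, 0.90, 0.89 and 0.64 in 8 mm defects and 0.98, 1.16, 0.31, 0.87 and 0.33 in 4 mm defects, against -5.58, -3.66, -3.08, -3.39 and -3.88 in 8 mm and -3.93, -6.58 and -3.30 in 4 mm defects at day 1. The days did not overlap in either size. The difference to day 1 was 2.96 ± 0.32 (SE), 4.34 ± 0.31, 4.91 ± 0.36, 5.08 ± 0.36, 4.97 ± 0.35 and 4.56 ± 0.35 on days 3, 5, 7, 10, 14 and 21. In linear terms this was 7.79-fold at day 3 and 33.8-fold at day 10. The limma adjusted p lay between 3.39e-20 at day 14 and 2.52e-11 at day 3. Already at day 3, all 19 arrays stood above the highest day 1 array, with a lowest, median and highest value of -2.72, -1.16 and -0.64 in 8 mm and -1.61, -1.15 and -0.51 in 4 mm defects. The size of these differences depends on the lowest values. With values under 0.25 raised to 0.25, which touches all 8 day 1 values of this gene, the difference was 0.74 at day 3, where it was not called (adjusted p = 0.0877 by limma), and 2.07, 2.65, 2.82, 2.71 and 2.30 at the later days, all called. On the values as deposited Mfap2 had the largest difference of the list, at day 10, and with low values raised Mfap4 had it, with 3.04 at day 5.

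Fbn1 encodes fibrillin, the backbone of the microfibril. At day 7 it stood at -1.01, -0.55, 0.00, 0.07 and 0.35 in 8 mm and 1.34, 1.07, 0.49, 0.80 and 0.11 in 4 mm defects, against -4.90, -1.64, -2.45, -3.28 and -3.09 in 8 mm and -3.35, -2.40 and -2.43 in 4 mm defects at day 1. The groups of these days were apart, the closest arrays being -1.01 at day 7 and -1.64 at day 1. The difference to day 1 was 2.08 ± 0.40 at day 3 (limma adjusted p = 8.18e-05), 3.17 ± 0.44 at day 7 (adjusted p = 2.13e-08) and 3.41 ± 0.43, or 10.7-fold, at day 14 (adjusted p = 1.33e-09). At day 21 it was 3.00 ± 0.43 on the probe used and 0.78 ± 0.37 on the gene's other probe, which was not called there (limma adjusted p = 0.108). At days 3 to 14 both probes were called, the other one with 1.65 to 1.73. With values under 0.25 raised, the probe used had 1.23 at day 3 and 2.50 at day 14.

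Mfap5 encodes the second microfibril-associated glycoprotein and changed less. At day 14 it stood at 0.27, 0.79 and 1.25 (lowest, median and highest of 6) in 8 mm defects and at 1.19, -0.32, -0.35, 1.38 and 1.25 in 4 mm defects, against -3.61, -0.16, -0.51, -0.91 and -1.09 in 8 mm and -1.86, -1.02 and -0.996 in 4 mm defects at day 1. The 4 mm arrays of day 14 fell into high and low values, and the day 1 array of rat 11 was far below the others. The difference to day 1 was 1.09 ± 0.33 at day 3 (limma adjusted p = 0.0302), 1.35 ± 0.37 at day 7 (adjusted p = 0.00489) and 1.98 ± 0.37, or 3.95-fold, at day 14 (adjusted p = 2.07e-05). Without the day 1 array of rat 11 of the 8 mm group the day 3 and day 5 differences were both 0.79 and were not called (limma adjusted p = 0.196 and 0.081), nor were they without rat 13 of the 4 mm group (0.94 at both days, adjusted p = 0.185 and 0.0784). The day 3 call was also lost with the replicate block (adjusted p = 0.0855) and with only the groups compared (adjusted p = 0.153), and the day 5 call after quantile normalization (0.83, adjusted p = 0.0851), after centring (0.49, adjusted p = 0.148) and without the arrays of low level (0.65, adjusted p = 0.0683). The day 7 call was lost after centring without the arrays of low level (0.58, adjusted p = 0.132), and the day 10 call with only the groups compared (adjusted p = 0.099).

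Mfap4, a fibrinogen-related glycoprotein that binds elastin and fibrillin, was highest at day 5. At day 5 the lowest, median and highest values were -0.73, 0.88 and 2.90 in 8 mm and -0.72, 1.36 and 2.06 in 4 mm defects, against -5.93, -3.51, -2.17, -2.35 and -3.38 in 8 mm and -3.42, -2.80 and -3.23 in 4 mm defects at day 1. All 23 arrays of day 5 exceeded every array of day 1. The difference was 2.88 ± 0.40, 4.35 ± 0.39, 3.30 ± 0.45, 3.26 ± 0.45, 2.72 ± 0.44 and 3.27 ± 0.43 on days 3, 5, 7, 10, 14 and 21, with limma adjusted p between 1.48e-15 at day 5 and 1.03e-06 at day 14. The day 5 value corresponds to 20.4-fold. With values under 0.25 raised, the differences were 1.69, 3.04, 1.99, 1.95, 1.63 and 1.96, all called. At day 7 the 4 mm arrays lay close together, with a mean of 0.32 ± 0.17 (SD, n = 5), and the 8 mm arrays at -0.34 ± 0.55 (SD, n = 5).

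The fibulins, calcium-binding glycoproteins that link elastin to microfibrils and basement membranes, were highest on different days. Fbln5, whose loss in mice leaves elastic fibres disorganised, was highest at day 7. It stood there at -0.07, 0.31, 1.32, 1.33 and 1.04 in 8 mm and 1.32, 1.17, 1.45, 0.91 and 1.55 in 4 mm defects, against -1.41, -1.03, -1.996, -1.35 and -1.60 in 8 mm and -4.00, -1.36 and -1.88 in 4 mm defects at day 1. The days were apart in both sizes. The difference to day 1 was 1.31 ± 0.33 at day 3 (limma adjusted p = 0.00541), 2.98 ± 0.37, or 7.88-fold, at day 7 (adjusted p = 7.6e-10) and 1.83 ± 0.36 at day 21 (adjusted p = 4.31e-05). The day 3 call was lost without rat 13 of the 4 mm day 1 group, at 0.91 with a limma adjusted p of 0.181, and without all arrays of low level (0.97, adjusted p = 0.118).

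Fbln1, found in elastic fibres and around vessels, was highest at day 21. On that day the lowest, median and highest values were 0.97, 1.54 and 2.11 in 8 mm and 0.65, 0.99 and 1.73 in 4 mm defects, against -2.50, -0.95, -0.90, -1.25 and -1.72 in 8 mm and -2.56, -1.44 and -0.74 in 4 mm defects at day 1. All 12 arrays of day 21 were above those of day 1. The difference was 0.69 ± 0.46 at day 3 (limma adjusted p = 0.528), 2.61 ± 0.52 at day 7 (adjusted p = 5.82e-05), 1.56 ± 0.52 at day 10 (adjusted p = 0.0272) and 2.83 ± 0.50, or 7.11-fold, at day 21 (adjusted p = 5.87e-06). The day 10 value holds an array at the floor, rat 10 of the 4 mm group, and was 2.58 without it. The call was lost with only the groups compared (limma adjusted p = 0.353), with the less variable genes left out (adjusted p = 0.0591), and without rat 13 of the 4 mm or rat 11 of the 8 mm group at day 1 or rat 11, 12 or 13 of the 4 mm group at day 10 (1.19 to 1.43). The gene's other probe gave smaller differences, 1.54 ± 0.42 at day 7 and 1.84 ± 0.41 at day 21, both called. It had 1.13 ± 0.37 at day 5, where it was called (limma adjusted p = 0.0197), beside 1.18 ± 0.45 on the probe used, which was not (adjusted p = 0.0537).

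Fbln2, a fibulin of developing heart valves and basement membranes, was highest at day 5. On that day the lowest, median and highest values were -1.19, 0.57 and 1.38 in 8 mm and -0.62, 0.69 and 1.06 in 4 mm defects, against -3.27, -0.16, -1.37, -0.62 and -2.11 in 8 mm and -1.90, -0.45 and -1.34 in 4 mm defects at day 1. Of the 23 arrays of day 5, 20 exceeded the highest of day 1. The difference was 1.62 ± 0.35 at day 3 (limma adjusted p = 0.000649), 1.91 ± 0.34, or 3.76-fold, at day 5 (adjusted p = 7.36e-06), 1.16 ± 0.39 at day 10 (adjusted p = 0.0303) and 0.68 ± 0.38 at day 21 (adjusted p = 0.176). The day 10 call was lost in the fit of only the groups compared (limma adjusted p = 0.168), with the replicate block (0.97, adjusted p = 0.131) and without any of 6 single arrays, among them rat 11 of the 8 mm group at day 1 (0.94, adjusted p = 0.0884). At day 21 the gene's other probe gave 1.31 ± 0.44 and was called (limma adjusted p = 0.0192). After quantile normalization the probe used was called at days 14 and 21 too, with 1.31 and 1.33 (adjusted p = 0.00697 and 0.005).

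Eln, the elastin of the fibre core, varied widely between arrays. At day 21 its lowest, median and highest values were -6.64, 1.53 and 3.60 in 8 mm and -1.25, 1.04 and 2.81 in 4 mm defects, against -2.38, 0.08, 0.78, 0.37 and -1.27 in 8 mm and -2.27, 0.94 and -6.64 in 4 mm defects at day 1. The days overlapped, with 6 of 12 arrays of day 21 above the highest of day 1. The difference was -0.22 ± 0.84 at day 3, 2.11 ± 0.94 at day 7 (limma adjusted p = 0.0975) and 2.35 ± 0.90, or 5.1-fold, at day 21 (adjusted p = 0.0433). Each side of the day 21 comparison holds an array at the floor. That of day 21, rat 15 of the 8 mm group, lowers the difference and was not left out singly. The call was lost in 7 of 11 other settings that tested the gene, and without the floor array of day 1, rat 18 of the 4 mm group, the difference was 1.35 (limma adjusted p = 0.32). Leaving out rat 13 of the 4 mm group or rat 11 or 16 of the 8 mm group at day 1 also lost it, with 2.45, 2.12 and 2.25.

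Of the lysyl oxidases, Loxl1, which is needed for elastic fibre upkeep in mice, stood at -0.49, -0.16, -0.17, 0.56 and 0.57 in 8 mm and 0.54, 0.98, 0.11, 0.85 and 0.00 in 4 mm defects at day 7, against -4.88, -2.89, -1.94, -2.17 and -4.58 in 8 mm and -4.11, -2.85 and -3.28 in 4 mm defects at day 1. All 10 arrays of day 7 lay above every array of day 1. The difference was 2.13 ± 0.33 at day 3 and between 3.44 ± 0.32 and 3.69 ± 0.37 at days 5 to 21, or 10.9-fold to 12.9-fold, with limma adjusted p from 8.92e-07 at day 3 to 6.52e-15 at day 5. With values under 0.25 raised, it was 0.87 at day 3 and 2.08 to 2.33 at the later days, all called. The gene's other probe gave 2.93 ± 0.35 at day 7.

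Lox, the main lysyl oxidase of collagen and elastin, stood at -1.11, -0.59, -0.83, -1.03 and 0.26 in 8 mm and 0.55, 0.71, 0.04, 0.66 and 0.29 in 4 mm defects at day 7, against -2.01, 0.49, 0.15, -0.54 and -0.47 in 8 mm and -1.26, -0.90 and -0.95 in 4 mm defects at day 1. The 8 mm arrays of day 7 lay within the range of those of day 1, and the 4 mm arrays of day 7 lay above those of day 1. The difference was 0.95 ± 0.29 at day 5, the only day it was called (limma adjusted p = 0.0133), 0.65 ± 0.34 at day 7 (adjusted p = 0.168) and -0.12 ± 0.33 at day 21 (adjusted p = 0.83). The probes disagreed, since the other one was called at days 5, 7, 10 and 14, with 1.53 ± 0.32 at day 7 (limma adjusted p = 0.000181). The day 5 call was lost after quantile normalization (0.70, limma adjusted p = 0.0748) and after centring (0.36, adjusted p = 0.155), without the arrays of low level (0.71, adjusted p = 0.0514), and without rat 13 of the 4 mm or rat 11 of the 8 mm group at day 1 (0.90 and 0.76, adjusted p = 0.0624 and 0.0729). At day 3 the difference was 0.82 ± 0.30 and not called (limma adjusted p = 0.0984). It was called there with only genes above the floor (limma adjusted p = 0.038), with values under 0.25 raised (adjusted p = 0.0358) and with array weights (adjusted p = 0.000652). The same held without rat 12 of the 8 mm group at day 1 (0.95, adjusted p = 0.0417).

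**Figure D2:**
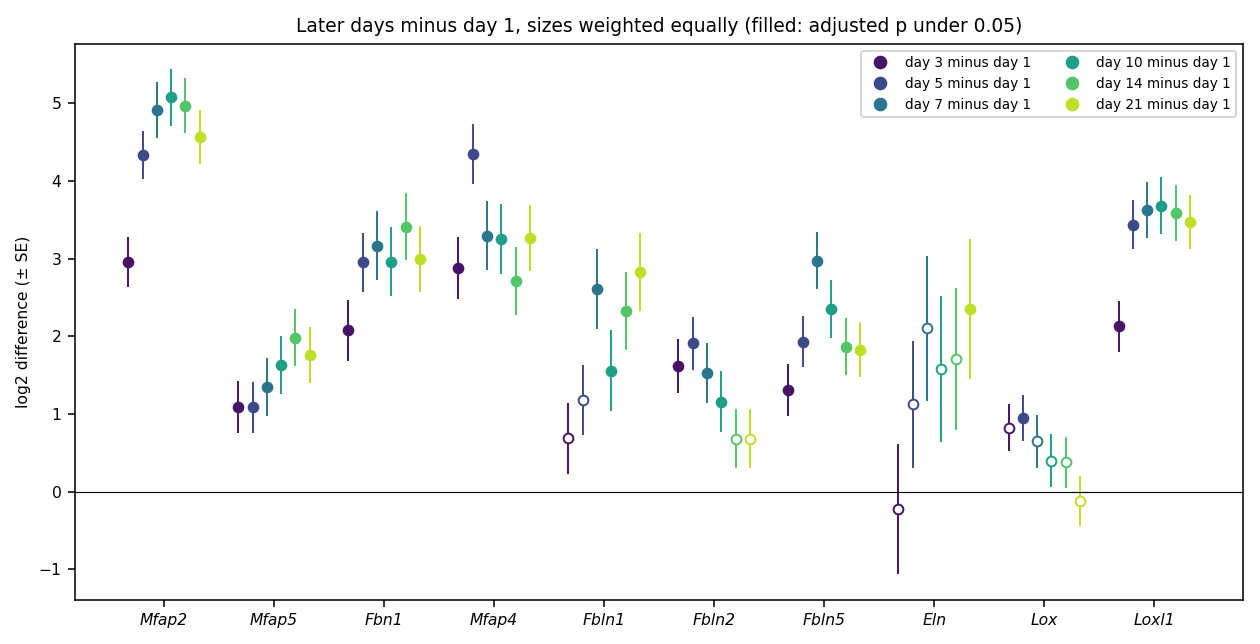
Log2 difference to day 1 (vertical axis, ± SE) of each gene (horizontal axis) at days 3 to 21, with both defect sizes weighted equally. Filled points had a limma adjusted p under 0.05 over all genes. Mfap2 reaches 5.08 at day 10, and Lox stays below 1 on the probe used.

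Between day 7 and day 21, 1 of the 10 genes was called lower at day 21, Fbln5, beside 12.9% of all genes, and 0 were called higher, beside 3.56%. These shares are close to those of all genes. Fbln5 averaged -0.52 ± 1.05 (SD, n = 6) in 8 mm and 0.29 ± 0.96 (SD, n = 6) in 4 mm defects at day 21, against 0.78 ± 0.63 (SD, n = 5) in 8 mm and 1.28 ± 0.25 (SD, n = 5) in 4 mm defects at day 7. The difference was -1.15 ± 0.33 (limma adjusted p = 0.0104). It was not called after quantile normalization (-1.05, adjusted p = 0.117) or after centring (-0.80, adjusted p = 0.0621). After centring, Mfap5 was called instead, and higher at day 21 (0.76). Lox at -0.77 ± 0.30 (limma adjusted p = 0.0661) and Fbln2 at -0.84 ± 0.35 (adjusted p = 0.0813) missed the threshold. Both were called beside Fbln5 in 5 other settings, with only genes above the floor, values under 0.25 raised, array weights, only the groups compared, or no arrays of low level. The other probe of Lox was called, at -1.22 ± 0.29 (limma adjusted p = 0.00161). The median of the 10 genes was -0.16, and that of all genes was -0.43. After centring these were 0.18 and -0.09, so the sign of the first turned with the scaling.

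The second question of the design was whether the larger defects differed from the smaller ones. For this list 0 of 10 genes were called at any day by limma. Of all genes, 0%, 0%, 0%, 0.369%, 0.263%, 1.63% and 2.4% were called on days 1, 3, 5, 7, 10, 14 and 21. Over the days averaged, 0 of the 10 were called beside 0.413% of all genes, and for the interaction of size and day 0 of the 10 beside 0.538%. At an unadjusted p under 0.05, 0 of the 10 passed at days 1, 3, 5, 10 and 21, 1 at day 7, 4 at day 14, 1 for the average and 2 for the interaction. Of all genes, 2.64%, 3.04%, 2.97%, 15.2%, 8.79%, 12.3% and 15.8% did so on the 7 days (421, 485 and 474 genes at days 1, 3 and 5), 13.2% for the average and 12.2% for the interaction. At days 1, 3 and 5 these shares lie below the 0.05 that is awaited where no gene differs. With 1 spread shared by all groups the test may have been strict at these days. The 0 calls there do not show that the sizes were alike. The median difference of the 10 genes, 8 mm minus 4 mm, was 0.12, -0.43, -0.01, -0.51, 0.16, 0.97 and 0.14 at the 7 days, beside 0.09, -0.16, 0.08, -0.40, -0.11, 0.14 and -0.20 over all genes. The sign at day 7 turned after centring, with 0.05 for the 10 genes and 0.16 for all genes, and that at day 5 turned after quantile normalization (0.01). The day 14 median was 0.45 after quantile normalization and 0.92 after centring.

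**Figure D3:**
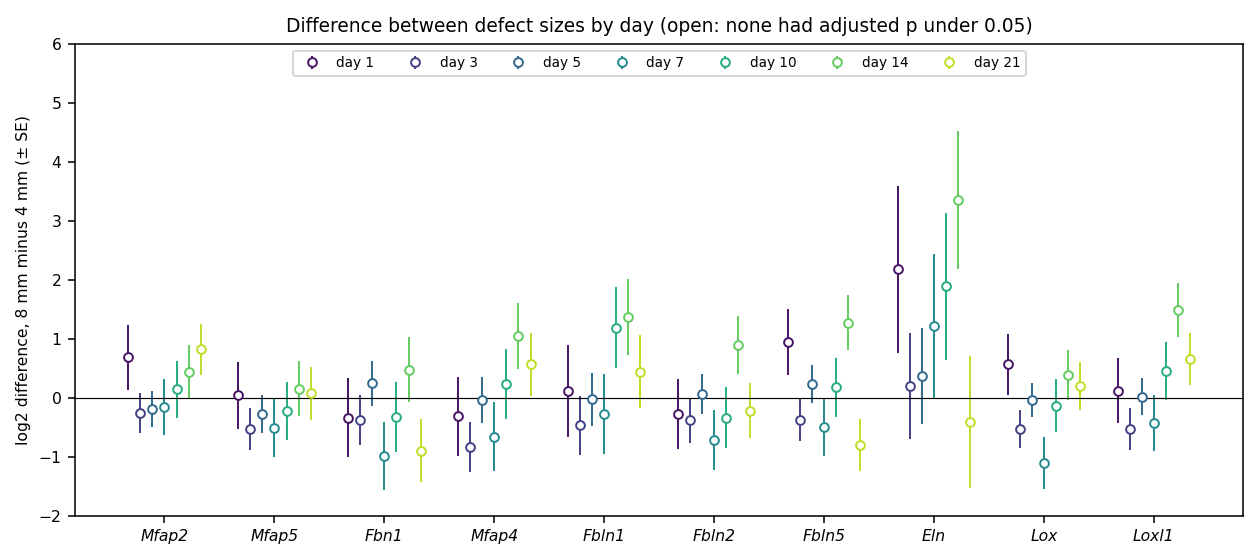
Log2 difference 8 mm minus 4 mm (vertical axis, ± SE) of each gene (horizontal axis) at each of 7 days. All points are open because 0 had a limma adjusted p under 0.05. All 10 day 14 points lie above 0, Eln highest at 3.35, and the Lox day 7 point lies at -1.11.

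At day 14, 4 genes had an unadjusted p under 0.05, namely Loxl1, Eln, Fbln5 and Fbln1, each with the higher mean in 8 mm defects, beside 12.3% of all genes. Loxl1 stood at 1.55, 1.02, 0.97, 1.17, 0.96 and 0.21 in 8 mm defects, against 0.41, 0.07, -3.05, -0.55 and 0.56 in 4 mm defects. Rat 17 of the 4 mm group was far below the others, and without it the groups still overlapped only in the lowest 8 mm array. The difference was 1.49 ± 0.46 (limma adjusted p = 0.0738), and 0.86 without rat 17 (adjusted p = 0.553). It was called after centring (1.44, adjusted p = 0.00215), without the arrays of low level (1.49, adjusted p = 0.0208) and without rat 15, 16 or 20 of the 4 mm group (1.72, 1.64 and 1.76). None of the arrays of low level is of day 14, so leaving them out left the differences of this day unchanged. The gene's other probe gave 0.87 ± 0.44 and was not called (adjusted p = 0.399). Fbln5 differed by 1.27 ± 0.47 (adjusted p = 0.169), and by 0.59 without that array (adjusted p = 0.791). Fbln1 differed by 1.36 ± 0.65 (adjusted p = 0.358), and by 0.90 without it (adjusted p = 0.786), and was called without the arrays of low level (1.36, adjusted p = 0.0195).

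Eln at day 14 stood at 2.32, 0.90, 2.26, 2.53, 2.08 and 0.80 in 8 mm defects, against -6.64, 2.51, -2.39, -1.08 and -0.07 in 4 mm defects. All but 1 of the 4 mm arrays lay below every 8 mm array, and 1 of them was at the floor. The difference was 3.35 ± 1.17 (limma adjusted p = 0.139), and 3.14 without rat 17 (adjusted p = 0.324). It was 2.08 without the floor array, rat 15, and 4.36 without rat 16, where it was called (limma adjusted p = 0.0329). Averaged over the 7 days, Eln was 1.26 ± 0.43 higher in 8 mm than in 4 mm defects, which did not pass (limma adjusted p = 0.189). After centring it was 1.40 and passed (adjusted p = 0.0436). Rat 17 of the 4 mm group at day 14 was the lowest array of its group for 9 of the 10 genes. Its mean log2 level over 7 brain markers was 3.22, beside -0.22 ± 2.58 (SD, n = 5) for its whole group. Rat 11 of the 8 mm group at day 14 had 3.70 and was the lowest of its group for 1 of the 10 genes. Rat 17 also had the lowest median level of its group over probes never at the floor, -0.53 beside -0.19 to 0.40 on the others. Its share of probes at the floor, 23.09%, was the highest of the group. Its level is above the cut of -0.7, so the setting without arrays of low level kept it. The part of those markers or of the array level in the result was not tested.

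Lox at day 7 was the reverse case, with the per-array values given above. It averaged -0.66 ± 0.55 (SD, n = 5) in 8 mm and 0.45 ± 0.28 (SD, n = 5) in 4 mm defects, and only rat 15 of the 8 mm group reached the 4 mm range. The difference was -1.11 ± 0.44 (limma adjusted p = 0.238), beside a median of -0.40 over all genes. It was -0.56 after centring (adjusted p = 0.322), and was called with array weights (-1.26, adjusted p = 0.00483) and without the arrays of low level (adjusted p = 0.03). None of the arrays of low level is of day 7, so the difference stayed at -1.11 without them. For the interaction of size and day Fbln5 and Loxl1 came nearest, with limma adjusted p of 0.295 and 0.312.

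The genes were compared among themselves over their 14 group means, as a description of profiles that share the same arrays. The 45 pairs had a median Pearson correlation of 0.695. Mfap2 and Loxl1 were most alike at 0.977, followed for the other genes by Fbn1 with Mfap2 at 0.935, Mfap5 with Fbn1 at 0.899, Mfap4 with Loxl1 at 0.89, Fbln5 with Loxl1 at 0.876, Fbln1 with Loxl1 at 0.819, Fbln2 with Lox at 0.815 and Eln with Fbln1 at 0.814. The least alike were Eln and Lox at -0.0939. Highest mean over both sizes fell on day 5 for Mfap4, Fbln2 and Lox, on day 7 for Fbln5, on day 10 for Mfap2 and Loxl1, on day 14 for Mfap5 and Fbn1, and on day 21 for Fbln1 and Eln. All these profiles are of the probe used for each gene. On the other probe the difference to day 1 was largest at day 7 for Lox (1.53), day 10 for Fbn1 (1.73) and day 14 for Loxl1 (3.15). For Fbln2 and Fbln1 the day was the same on both probes. Among 5404 genes outside the list that were above the floor on every array, the mean profile of the 10 was most like those of Nid1 (0.982), a basement membrane linker, Ctsh (0.976), a lysosomal protease, Vstm4 (0.975), Msln (0.975), a surface glycoprotein of mesothelium, and Wdr6 (0.972).

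Other genes of the pathway were taken from 4 lists. Of 23 measured partners of the elastic fibre, 9 rose and 0 fell at day 7, and 9 rose and 2 fell at day 21, both against day 1. Of all genes, 16.6% rose and 4.83% fell at day 7, and 13.4% rose and 12.8% fell at day 21, against which these and the following counts are to be read. The 23 had a median difference of 1.02 at day 7. Fbn2, the fibrillin of development and wounds, rose by 5.52 ± 0.38 at day 7 (limma adjusted p = 7.14e-21), and fell by 1.87 ± 0.34 at day 21 relative to day 7 (adjusted p = 5.59e-05). Efemp1, a fibulin of elastic tissues, rose by 3.10 ± 0.68 (adjusted p = 0.000288), and Ltbp3, which carries latent TGF-beta, by 2.72 ± 0.30 (adjusted p = 8.13e-12). Ltbp3 was also the single partner called for size, at 1.28 ± 0.36 in 8 mm over 4 mm defects at day 21 (adjusted p = 0.0317).

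Of 10 genes of cross-linking and copper supply, 6 rose and 0 fell at day 7, and 5 rose and 2 fell at day 21. Postn, a matricellular protein that brings lysyl oxidase activation to collagen, rose by 4.41 ± 0.42 at day 7 (limma adjusted p = 4.17e-14). Fmod, a small collagen-binding proteoglycan, rose by 4.20 ± 0.50, and Loxl2, a lysyl oxidase of basement membranes, by 3.18 ± 0.38 (adjusted p = 1.38e-10 for both). At day 21 relative to day 7, Loxl2 fell by 1.95 ± 0.33 (adjusted p = 2.45e-05) and Postn by 1.90 ± 0.37 (adjusted p = 0.000201).

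Of 10 proteases able to cut elastin, 7 rose and 0 fell at day 7, and 3 rose and 1 fell at day 21. Mmp12, the macrophage elastase, rose by 5.36 ± 0.53 (limma adjusted p = 1.6e-13), Ctsk, the cathepsin of osteoclasts, by 4.39 ± 0.36 (adjusted p = 5.59e-17) and Mmp14, a membrane-bound collagenase, by 2.10 ± 0.31 (adjusted p = 1.04e-07). Mmp9 was the protease called for size, at 2.33 ± 0.57 in 8 mm over 4 mm defects at day 14 (adjusted p = 0.0145). Of 10 receptor genes for elastin and fibrillin, 5 rose and 1 fell at day 7, and 1 rose and 2 fell at day 21, shares close to those of all genes at day 21. Glb1, which encodes beta-galactosidase and by splicing the elastin-binding protein, rose by 2.22 ± 0.31 (adjusted p = 1.75e-08), and Ctsa, its partner in the receptor complex, by 1.89 ± 0.32 (adjusted p = 3.57e-06). Itga5, the alpha chain of the main fibronectin receptor, fell by 1.91 ± 0.56 at day 7 (adjusted p = 0.00823) and by 4.87 ± 0.54 at day 21 (adjusted p = 1.37e-11).

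**Figure D4:**
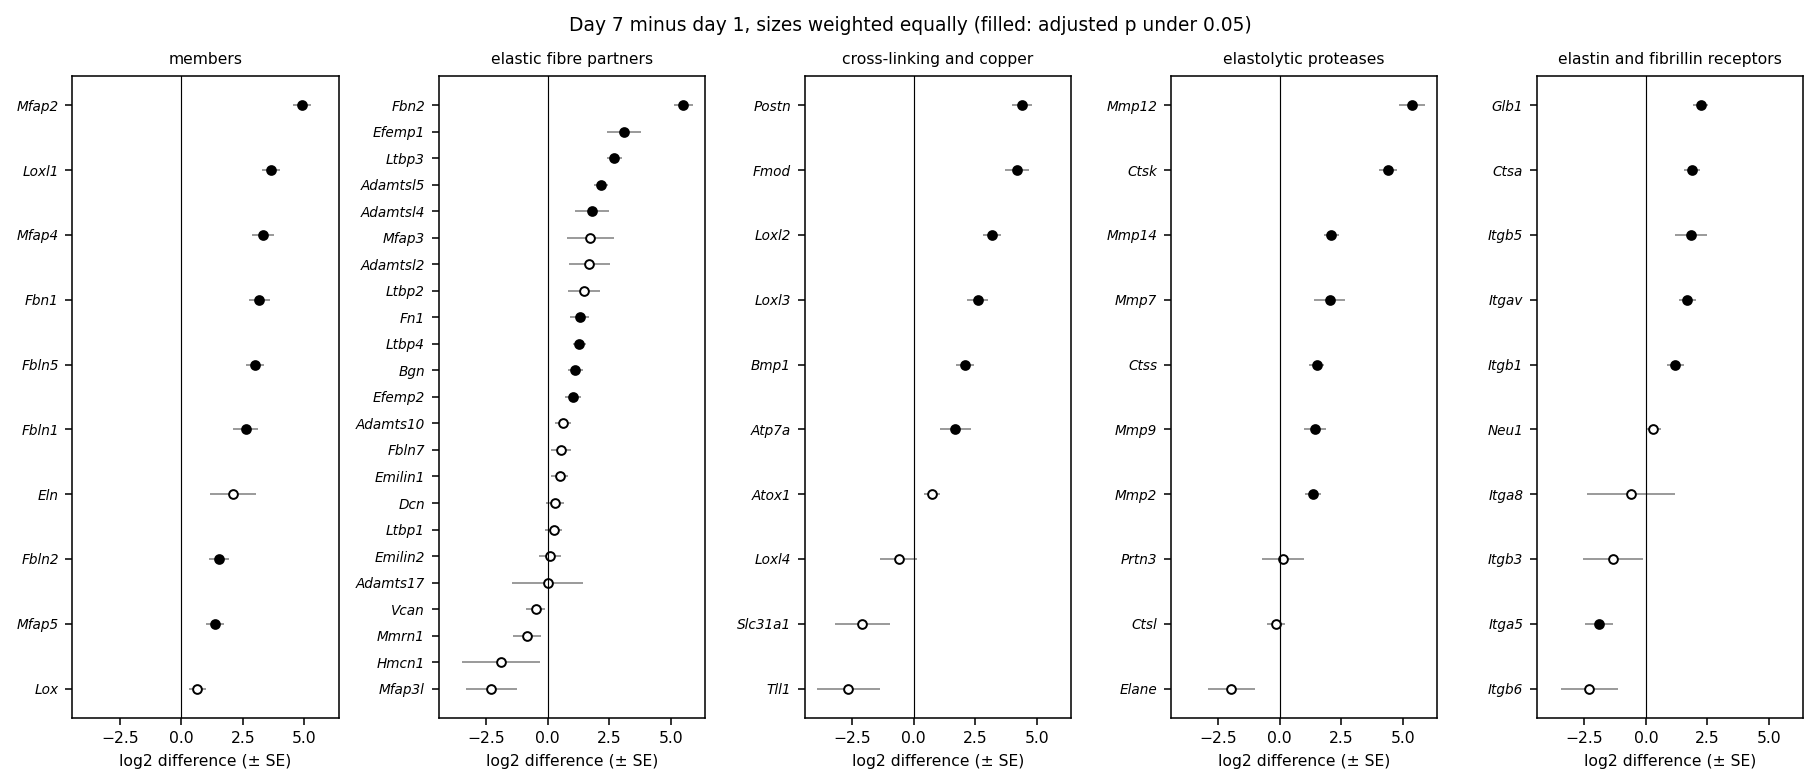
Log2 difference of day 7 minus day 1 (horizontal axes, ± SE) for the 10 genes and for the measured genes of 4 lists, sorted within each panel. Filled points had a limma adjusted p under 0.05 over all genes. Most filled points lie to the right of 0, and Itga5 is the filled point to the left.

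Markers of cells in the tissue moved as well. Of 10 fibroblast markers, 6 rose and 0 fell at day 7 against day 1. Their mean log2 level lay at -0.53 to 0.46 in 8 mm and 0.42 to 1.10 in 4 mm defects at day 7, against -3.75 to -1.16 in 8 mm and -2.56 to -1.70 in 4 mm defects at day 1. Of 9 smooth muscle and pericyte markers, 4 rose and 0 fell, with levels of -0.53 to 0.36 in 8 mm and -0.69 to 0.69 in 4 mm defects at day 7, against -2.75 to -0.48 in 8 mm and -1.65 to -0.40 in 4 mm defects at day 1. Of 8 skeletal muscle markers 7 fell and of 6 neutrophil markers 4 fell at day 7. The muscle level was -2.91 to 2.47 in 8 mm and -3.56 to -1.31 in 4 mm defects at day 7, against -1.52 to 5.39 in 8 mm and 0.67 to 7.14 in 4 mm defects at day 1. Of 7 osteoblast markers 3 rose at day 7 and 4 at day 21. At day 7, 2 of 6 chondrocyte, 3 of 7 endothelial, 4 of 6 macrophage and 5 of 7 meningeal markers rose and 0 fell, and 1 of 5 epidermal markers fell. Of 7 brain markers 0 were called in either direction, with a median difference of 1.04. Of the markers of all these cells, 0 were at the floor on all arrays of any of the 14 groups. The part of these cells in the results of the 10 genes was not tested. Leaving out the 8 arrays whose brain marker level was above 2 gave 7, 8, 8, 8, 7 and 7 of the 10 genes called higher than at day 1, and 0 called for size.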

How the data were processed

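The values are linear ratios per probe, as deposited by the authors in the series' value table, from 1-colour Agilent arrays per the labels. The ratio of most probes has a median of 1 over arrays (87.751% of 41090 probes), and 13.418% of values lie at the floor of 0.01. This last share differs between days, as given above. Scanner settings, background correction, scaling and genome build were not given in the sources used here. The planned design assumed log values, so log2 of the ratios was taken, with no pseudocount.

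GEO's platform annotation gave 1 symbol for 20932 probes, several for 0 and none for 20158. Symbols were updated through RefSeq, which matched 17415 probes, and the probe with the largest interquartile range stood for each of 15974 genes, 3881 of which had several. A model of 14 group means was fitted in limma 3.58.1 (R 4.3.3), with moderated tests and Benjamini-Hochberg adjustment over all genes within each comparison. The code was tested on simulated data, with genes drawn independently from normal distributions, no floor and no shifts between arrays. This checks the code and not how the fit fares with such features of the data. The number of arrays limits the precision.

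Within a day, deviations of same-numbered 8 mm and 4 mm arrays were mostly weakly correlated. Of 34 same-numbered pairs of deviations, 2 correlated over 0.1 (median 0.00557, highest 0.332). Whether same-numbered arrays come from the same animal is not decided by this, since defects of the same animal need not deviate alike. Numbers shared across days were not checked. All 10 genes are named. From each list of other genes, the 3 with the largest absolute difference among those called at day 7 were named, with those called for size. The 10 genes and all lists were chosen with earlier results of these data known. The settings without arrays of low level that were also centred, and without arrays of high brain marker level, were added after seeing the data.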

Additional observations from a re-analysis of the deposited data

Results flagged for a closer look

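In groups of 4 to 10 arrays, the array standing far from the rest of its group by Dixon's test was sought for each of the 10 genes. This gave 15 values, on 8 arrays, in 100 groups of values, where chance gives about 1 in 20. Of these, 4 came from rat 17 of the 4 mm group at day 14, given here with the nearest other array in brackets. Mfap2 had -1.42 (nearest 0.65), Fbn1 -2.26 (0.67), Mfap4 -4.19 (-0.56) and Fbln2 -3.56 (-0.76). Rat 15 of the 4 mm group at day 21 had Mfap5 at -1.11 (0.41), Fbln5 at -1.65 (0.57) and Lox at -2.19 (-0.96). Rat 15 of the 8 mm group at day 14 had Mfap2 at -0.9 (1.09) and Fbn1 at -0.88 (0.85). Rat 10 of the 4 mm group at day 10 had Mfap5 at -1.72 (1.1) and Fbln1 at the floor of -6.64 (1.33). Mfap5 was at -3.61 in rat 11 of the 8 mm group at day 1 (-1.09), and Eln was at the floor of -6.64 in rat 15 of the 8 mm group at day 21 (0.13). Fbln2 was high at 0.82 in rat 15 of the 8 mm group at day 7 (-0.34) and at -0.19 in rat 13 of the 8 mm group at day 21 (-0.83). Mean brain marker level was 3.22 for rat 17 at day 14 and 4.36 for rat 15 at day 21, both 4 mm. It was -1.635 to -0.42 on the other flagged arrays. Levels were also high on arrays that were not flagged. In 8 mm defects these were rats 10 and 12 at day 7 (3.82 and 4.42) and rat 11 at day 14 (3.70). In 4 mm defects these were rats 10 and 11 at day 21 (4.06 and 4.44). Most flagged arrays were also extreme in median level over probes never at the floor. In 4 mm defects it was lowest on rats 10, 17 and 15 at days 10, 14 and 21 (-1.03, -0.53 and -0.39). In 8 mm defects it was lowest on rat 11 at day 1 (-1.496) and rat 15 at day 14 (-0.42). There it was highest where Fbln2 was high, on rat 15 at day 7 (0.33) and rat 13 at day 21 (0.15). Rat 15 of this size at day 21 was neither (-0.29). Rat 11 of this size was lowest at days 10 and 21 (-0.97 and -0.63) but not flagged. The part of either level in the flagged values was not tested.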

How the results depend on the processing

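Counts of the 10 genes called, which do not say which genes, were within 1.5 times of those reported except as follows. With the less variable genes left out, 4 of the 10 were tested and 2, 2, 3, 2, 3 and 3 were called higher at days 3, 5, 7, 10, 14 and 21 than at day 1, and 0 for day 21 against day 7. With only the groups compared in the fit, 5 were called at day 10 and 3 for day 21 against day 7. That last count was 0 after quantile normalization, 2 with the mean of all probes (Fbln5 and Lox) and 3 (Fbln5, Fbln2 and Lox) with genes always above the floor, values under 0.25 raised, array weights, and without arrays of low level. Centring gave 1, but this was Mfap5, called higher, and centring without arrays of low level gave 3, Fbln5 lower and Mfap5 and Fbln1 higher. For size, where 0 were called, array weights gave 2 at day 7 (Lox and Fbn1) and leaving out arrays of low level gave 1 (Lox). At day 14 centring gave 1 (Loxl1), leaving out arrays of low level 2 (Loxl1 and Fbln1), both together 2, and leaving out 1 array 0 to 2. For the average over days centring gave 2 (Eln and Loxl1), and 2 without those arrays (Mfap2 and Loxl1). For the interaction both gave 1 (Loxl1). The cause was not tested. The replicate block gave 6, 8, 8, 7, 7 and 7 called higher than at day 1, 1 for day 21 against day 7 and 0 for size. Here and throughout, arrays were left out singly only in groups of up to 5 arrays, 27 arrays in all. No array of days 3, 5 or 21 was left out in this way. Leaving out 1 of the 27 gave 5 to 8, 6 to 9, 8 to 9, 6 to 8, 7 to 8 and 7 to 8 called at days 3 to 21. Among the differences to day 1, signs reversed for uncalled values only. Eln at day 3 was 0.18 with array weights, 0.033 without arrays of low level and -1.22 to 0.68 with 1 array out. Lox was -0.088 at day 14 after centring and -0.031 centred without arrays of low level. Lox at day 21 was 0.10 with the mean of probes, 0.048 without arrays of high brain marker level and -0.31 to 0.0047 with 1 array out. Over 12 settings, single-gene results were counted for all differences to day 1 and for some others. For day 21 against day 7 only Fbln5, Lox and Fbln2 were counted. For size at a day, Loxl1, Fbln5, Eln and Fbln1 at day 14 and Lox at day 7 were counted. So were Eln averaged over days, and Loxl1 and Fbln5 for the interaction. Of the results counted, 721 kept their direction and side of the threshold, 34 newly passed, 29 no longer passed and 6 reversed. Signal over background is unknown, and the floor limits Eln and Fbln1.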
